A study of Schmidtea mediterranea with 24 samples.

Results

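The 283 most abundant transcripts of uninjected planarian tails are described here, out of 28742 transcripts counted. They are the transcripts with a mean of at least 500 CPM (the count divided by the library total and scaled to the same sum in every library) over the 4 uninjected libraries. 5 transcripts were left out by name, of which 2 reach that level. The uninjected libraries alone chose the members, so their high level there is the rule and not a result. Transcripts carry identifiers only, with no gene name beside them, so the protein that each one encodes is not given, and the tail tissue could not be checked against marker genes.

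*Schmidtea mediterranea* is a flatworm that regrows lost parts from stem cells. The animals were asexual, wild type, of the clonal line CIW4, and starved for 7 days before the experiment. Uninjected tails had no treatment. Buffer-injected tails received buffer with a fluorescent dextran, and EV-injected tails received extracellular vesicles (EVs, membrane-bound particles that cells release) with the same dextran. The EVs came from tissue fragments 12 hours after amputation. Injected animals that held little dextran after 1 hour were discarded, a selection that uninjected animals did not undergo. RNA came from tails behind the pharynx, without about 10% at the tip, 24 hours after injection in the injected groups. Each library pooled 5 tail fragments, with 4 biological replicates in each of 3 groups, and held 19621187 to 30903133 counts.

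In most animal tissues a short list of transcripts takes a large part of all messenger RNA. Such lists usually hold genes of protein synthesis, of the cytoskeleton and of energy metabolism, beside secreted or structural products of the main cell types. A library is a fixed number of reads, so a lower share of a few very abundant transcripts raises the shares of all others. Tail RNA is a mixture of cell types. A lower level can therefore come from fewer cells of a type or from less RNA per cell, and these cannot be told apart here.

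The members are 0.985% of all transcripts and took 41.2% ± 0.434 of the counts in uninjected tails (SD, n = 4). The 4 uninjected libraries gave 41.0%, 41.0%, 40.8% and 41.8%. The buffer-injected libraries gave 37.9%, 37.7%, 38.4% and 38.4%, a mean of 38.1% ± 0.338, and the EV-injected libraries gave 37.7%, 38.2%, 37.8% and 37.4%, a mean of 37.8% ± 0.311. All 8 injected libraries thus lay below all 4 uninjected ones, while the injected groups overlapped. The share was lower by 3.08 percentage points with buffer and by 3.40 with EVs, and no p is given for it, since the members were chosen on the uninjected libraries. With members chosen on the mean of all 12 libraries, which treats the groups alike, the differences were −2.56 and −2.91 points. Chosen on the 8 injected libraries they were −2.21 and −2.58 points.

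**Figure D1:**
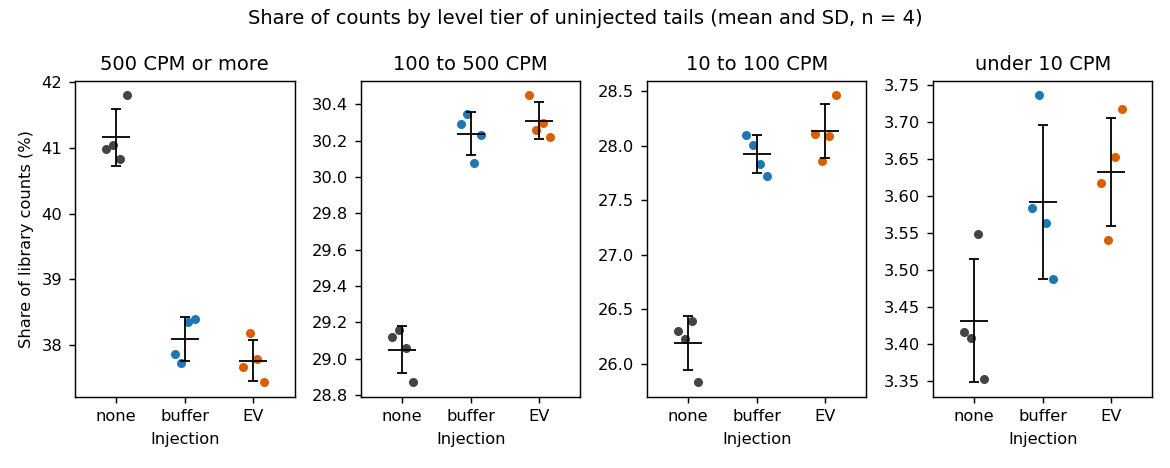
Share of library counts (%) held by transcripts of 4 levels in uninjected tails, with 1 point per library and the group mean and SD (n = 4). Vertical axes differ between panels and do not start at 0. The members (500 CPM or more) are lower in all injected libraries, and the transcripts of 100 to 500 CPM and of 10 to 100 CPM are higher.

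The counts that left the members were spread over the lower levels. Transcripts of 100 to 500 CPM, 1494 in number, held 29.1% ± 0.128 of counts without injection, 30.2% ± 0.116 with buffer and 30.3% ± 0.101 with EVs (SD, n = 4). The 7648 transcripts of 10 to 100 CPM went from 26.2% ± 0.250 to 27.9% ± 0.173 and 28.1% ± 0.248. At under 10 CPM the injected and uninjected libraries overlapped.

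Counts were unevenly divided within the set. In uninjected tails 5 members reached 10000 CPM, 48 reached 2000 CPM, and 165 lay between 500 and 1000 CPM, with a median of 861 CPM. 51 members held 50% of the members' counts in uninjected tails, against 57 with buffer and 58 with EVs. The top 10 of uninjected tails took 8.85% ± 0.0437 of counts there, 7.29% ± 0.155 with buffer and 7.04% ± 0.249 with EVs (SD, n = 4). The 165 members of 500 to 1000 CPM together showed no such loss, at 11.5% ± 0.0602, 11.6% ± 0.141 and 11.6% ± 0.151 of counts. The top 10 was ranked on the uninjected libraries, which favours a higher share there, so its loss is a description. Of these 10, 8 were also in the top 10 with buffer and 7 with EVs.

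**Figure D2:**
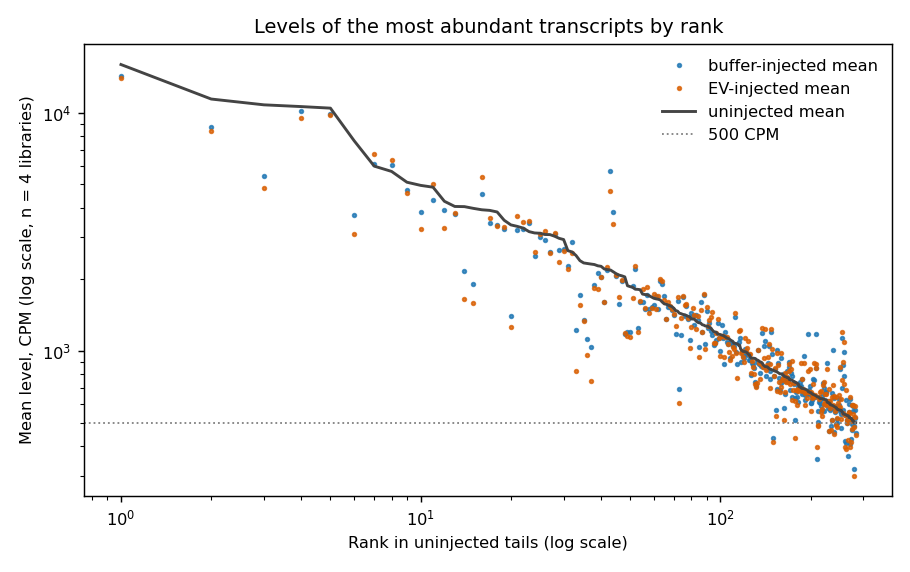
Mean CPM (n = 4 libraries) of the 283 members in order of their level in uninjected tails, both axes on a log scale. The line is the uninjected mean and the points are the injected means, and the points far under the line are the few members with large losses.

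Read counts rise with transcript length, so ranks and classes by CPM order the members by counts, not by level. Levels were compared after division by length, on the TPM scale, which sums to the same total in every library. Members were 211 to 17568 bases long, with a median of 1505 bases, against 1107 bases over the 21149 transcripts tested. Their level in uninjected tails ran from 47.1 to 18259 TPM, with a median of 833 TPM. Only 188 of the 283 reach 500 TPM, and 293 transcripts do so in all. By TPM the members held 43.4% of the uninjected total, 39.0% of the buffer-injected total and 38.4% of the EV-injected total.

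The member with the most counts was dd_Smed_v6_15_0_1, 2154 bases long. It had 15983, 16128, 16313 and 15215 CPM in the uninjected libraries, 14625, 14154, 13081 and 14931 CPM with buffer, and 13946, 14619, 13482 and 13792 CPM with EVs. Every injected library lay below every uninjected one, and the transcript held the first rank by counts in all 3 groups. Its log2 fold change was −0.20 ± 0.06 with buffer and −0.24 ± 0.06 with EVs (SE, edgeR adjusted p = 0.0174 and 0.00409). The buffer call was lost without uninjected replicate 2 (adjusted p = 0.052) or buffer-injected replicate 3 (adjusted p = 0.0642).

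dd_Smed_v6_3_0_1, the second by counts and 1634 bases long, had 10954, 11610, 11340 and 11712 CPM in uninjected tails. It had 8482, 9077, 8869 and 8524 CPM with buffer and 9090, 8523, 8126 and 7767 CPM with EVs. The injected libraries overlapped with each other and not with the uninjected ones. Log2 fold changes were −0.42 ± 0.06 and −0.50 ± 0.06 (SE, edgeR adjusted p = 6.15e-05 and 7.72e-06).

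dd_Smed_v6_56_0_1 and dd_Smed_v6_30_0_1 had smaller differences. dd_Smed_v6_56_0_1, 2455 bases long, had 10589, 10522, 10735 and 10557 CPM uninjected, 10406, 9376, 9941 and 11036 CPM with buffer, and 8722, 9405, 9716 and 9992 CPM with EVs. Its buffer-injected libraries lay on both sides of the uninjected ones, and its EV-injected libraries all lay below them. The log2 fold changes were −0.09 ± 0.06 with buffer (SE, edgeR adjusted p = 0.315) and −0.22 ± 0.06 with EVs (adjusted p = 0.0114).

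dd_Smed_v6_30_0_1, 1733 bases long, had 10694, 10295, 10492 and 10293 CPM uninjected, 9820, 9767, 9988 and 9861 CPM with buffer, and 9630, 9758, 9992 and 9764 CPM with EVs. Both injected groups lay under the uninjected one by a narrow margin. Its log2 fold changes were −0.12 ± 0.05 with buffer (SE, edgeR adjusted p = 0.0905) and −0.15 ± 0.05 with EVs (adjusted p = 0.0307). The EV call was lost with 5 of the 12 libraries left out in turn, with library totals as the only scaling (−0.09) and with the replicate number as a block (adjusted p = 0.0573).

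dd_Smed_v6_10_1_1 and dd_Smed_v6_79_0_1 were among the 6 members with the most counts and lost far more. dd_Smed_v6_10_1_1, 730 bases long, had 11541, 9793, 10421 and 11373 CPM uninjected. With buffer it had 5717, 3899, 7676 and 4345 CPM, and with EVs 4875, 6372, 4046 and 4111 CPM. No injected library reached the lowest uninjected one. Its log2 fold changes were −1.03 ± 0.17 and −1.20 ± 0.17 (SE, edgeR adjusted p = 0.000271 and 4.75e-05).

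dd_Smed_v6_79_0_1, 672 bases long, had 7737, 7067, 7457 and 8227 CPM uninjected, 4122, 2782, 5260 and 2715 CPM with buffer, and 3125, 4228, 2500 and 2546 CPM with EVs. The groups with and without injection did not overlap, and the transcript went from rank 6 by counts to 16 with buffer and to 25 with EVs. Its log2 fold changes were −1.07 ± 0.19 and −1.35 ± 0.19 (SE, edgeR adjusted p = 0.000357 and 3.06e-05).

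Per length, the 3 highest members in uninjected tails were dd_Smed_v6_10_1_1 at 18259 ± 1307 TPM, dd_Smed_v6_79_0_1 at 14021 ± 780 TPM and dd_Smed_v6_33_0_1 at 13649 ± 722 TPM (SD, n = 4). The last 2 differed by less than their spread, as did dd_Smed_v6_33_0_1 and the fourth, dd_Smed_v6_125_0_1. dd_Smed_v6_33_0_1, the shortest member at 211 bases, had 2370, 2173, 2270 and 2506 CPM uninjected, 1227, 822, 1610 and 850 CPM with buffer, and 998, 1267, 778 and 804 CPM with EVs. Its losses were close in size to those of the other 2, with log2 fold changes of −1.08 ± 0.18 and −1.33 ± 0.18 (SE, edgeR adjusted p = 0.000237 and 2.53e-05).

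dd_Smed_v6_125_0_1, 370 bases long and at 13070 ± 2178 TPM in uninjected tails (SD, n = 4), had higher means after injection and was added after its values were seen. It had 3198, 3735, 3878 and 4849 CPM uninjected, 4021, 4542, 4088 and 5530 CPM with buffer, and 4772, 4415, 5791 and 6487 CPM with EVs. Its groups overlapped in every comparison, and its level with EVs was 18284 ± 3277 TPM. The log2 fold changes were 0.18 ± 0.13 with buffer (SE, edgeR adjusted p = 0.377) and 0.40 ± 0.13 with EVs (adjusted p = 0.0328).

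**Figure D3:**
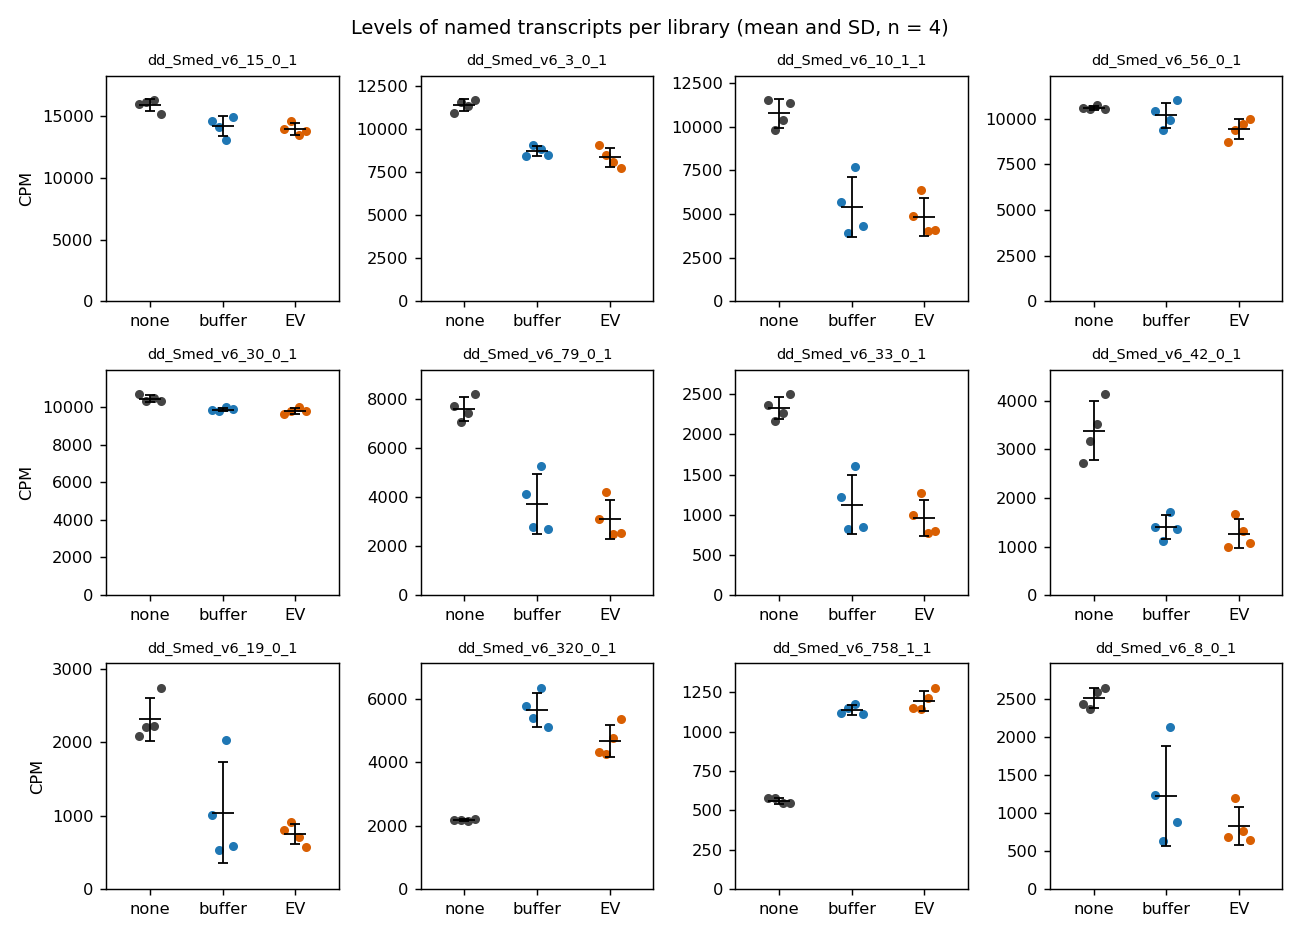
CPM of 12 named members in every library, with the mean and SD of each group (n = 4). The axes start at 0. Most panels show lower levels after injection, and dd_Smed_v6_320_0_1 and dd_Smed_v6_758_1_1 show higher ones.

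Buffer-injected tails were set against uninjected ones to show the changes that follow an injection without EVs. All 283 members passed the filter on low counts. With edgeR's quasi-likelihood test, fitted and adjusted over 21149 transcripts, 122 members were called at an adjusted p under 0.05, 38 higher and 84 lower. Over all tested transcripts 22.0% were called, 12.4% higher and 9.6% lower. Among members the shares were 43.1%, 13.4% and 29.7%. Deeply counted transcripts are called more easily, and the 1494 transcripts of 100 to 500 CPM had 45.9% called, 22.8% higher and 23.2% lower. With library totals as the only scaling the split was 51 higher and 76 lower. The libraries of the groups did not overlap for 137 members (48.4%), 39 higher and 98 lower, against 23.8% of tested transcripts, 13.1% higher and 10.7% lower.

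The excess of lower calls depends on how the members are chosen. Lower calls made up 68.9% of the calls among members, 60.2% (74 of 123) when members were chosen on all 12 libraries, and 53.2% (67 of 126) when chosen on the injected libraries. A choice on uninjected levels favours transcripts that are lower elsewhere, and these counts are therefore a description. The choice mattered little for the largest losses. At 2-fold or more 8 members were called lower under each of these 3 choices, and at 1.5-fold or more 17, 14 and 13 were. The gains did depend on the choice. At 1.5-fold or more 8, 13 and 18 were called higher, and at 2-fold or more 1, 2 and 7 were. The balance of large losses and gains among the members thus depends on the choice as well.

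Large losses with buffer were more frequent among the members with the most counts in uninjected tails. These counts are also the baseline of the fold changes, which favours losses among members ranked high, so this is a description. Among the 118 members of at least 1000 CPM, 13 were called at least 1.5-fold lower with buffer and 2 at least 1.5-fold higher. Among the 165 members of 500 to 1000 CPM the numbers were 4 and 6. Over all tested transcripts 2.03% were called 1.5-fold or more lower and 2.37% higher. At 2-fold or more there were 8 losses, all at 1000 CPM or above, and 1 gain, where 0.558% and 0.983% of tested transcripts were called. Leaving out buffer-injected replicate 2 took the 2-fold losses to 2, and leaving out replicate 4 of that group took them to 3. The 8 gains of 1.5-fold or more became 5 without uninjected replicate 1 or 4 or buffer-injected replicate 2, and 4 when buffer-injected replicate 3 was left out.

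The median log2 fold change of the members was −0.09, against 0.00 (−0.0039) over all tested transcripts. The middle 50% of members lay between −0.20 and 0.03. With library totals as the only scaling, which moved the median of all tested transcripts to 0.03, the median of members was −0.05. The members called lower had a median of −0.32 and those called higher a median of 0.29.

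**Figure D4:**
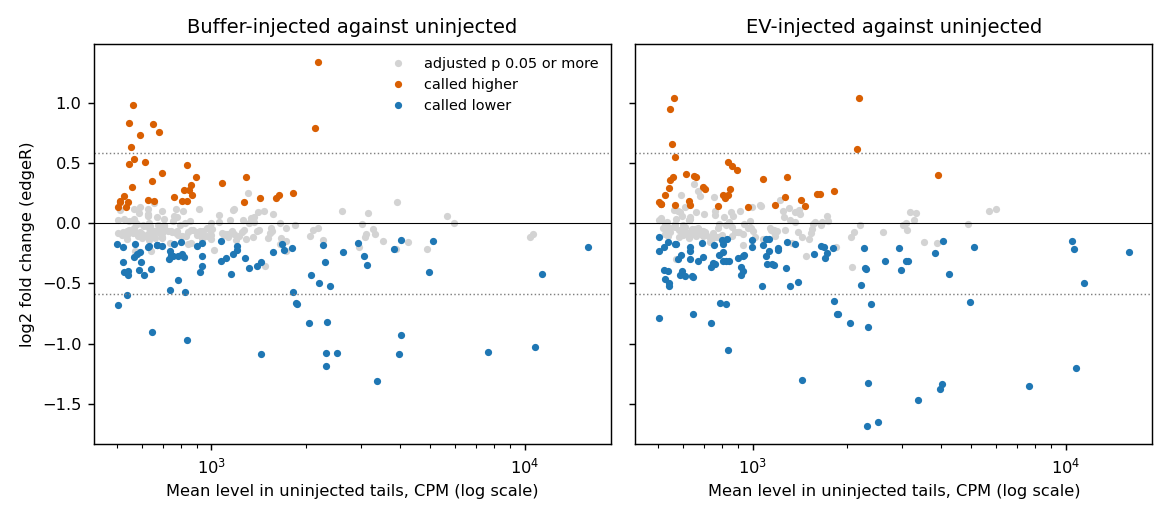
Log2 fold change (edgeR) of the 283 members against their mean level in uninjected tails (CPM, log scale), for buffer (left) and EVs (right). Dotted lines mark 1.5-fold. Losses beyond 1.5-fold are most frequent above 1000 CPM, and gains beyond 1.5-fold lie on both sides of it. The level and the fold change use the same uninjected libraries.

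The largest called loss with buffer was in dd_Smed_v6_42_0_1, 472 bases long. It had 2709, 3164, 3519 and 4142 CPM uninjected, 1411, 1116, 1708 and 1367 CPM with buffer, and 991, 1663, 1325 and 1082 CPM with EVs. The highest injected library stayed well below the lowest uninjected one. The log2 fold change was −1.31 ± 0.16 with buffer and −1.47 ± 0.16 with EVs (SE, edgeR adjusted p = 8.52e-06 and 1.9e-06).

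dd_Smed_v6_19_0_1, 530 bases long, was the second largest loss with buffer and the largest with EVs. It had 2094, 2204, 2226 and 2749 CPM uninjected, 1014, 538, 2027 and 588 CPM with buffer, and 798, 907, 710 and 576 CPM with EVs. Buffer-injected replicate 3 stood close to the uninjected libraries, and the other 3 had lost far more. The log2 fold change with buffer was −1.19 ± 0.29 (SE, edgeR adjusted p = 0.0063). It was −1.74 without buffer-injected replicate 3, and the robust fit did not call it (adjusted p = 0.0633). With EVs it was −1.68 ± 0.30 (SE, edgeR adjusted p = 0.000341).

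The largest gain was in dd_Smed_v6_320_0_1, 2515 bases long. It had 2193, 2176, 2164 and 2223 CPM uninjected, 5772, 5405, 6370 and 5136 CPM with buffer, and 4343, 4268, 4773 and 5372 CPM with EVs. Its uninjected libraries lay close together, and it moved from rank 43 by counts to 7 with buffer and to 10 with EVs. The log2 fold changes were 1.34 ± 0.07 and 1.04 ± 0.07 (SE, edgeR adjusted p = 4.89e-10 and 1.22e-08).

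dd_Smed_v6_758_1_1, 2605 bases long, had 577, 578, 546 and 546 CPM uninjected, 1117, 1148, 1177 and 1112 CPM with buffer, and 1150, 1145, 1217 and 1281 CPM with EVs. Both injected groups stood far above the uninjected one and overlapped with each other. The log2 fold changes were 0.98 ± 0.05 and 1.04 ± 0.05 (SE, edgeR adjusted p = 1.1e-10 and 4.85e-11). A transcript with the same leading number, dd_Smed_v6_758_0_1, changed by 0.10 and 0.16, and reads that both share could be split between them.

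EV-injected tails differ from uninjected ones by the EVs and the injection at once, and their comparison uses the same uninjected libraries as that of buffer. Here 145 members were called, 40 higher and 105 lower, or 51.2%, 14.1% and 37.1%. Over all tested transcripts the shares were 25.8%, 13.9% and 11.9%, and over those of 100 to 500 CPM 52.9%, 23.8% and 29.1%. With library totals as the only scaling 56 were higher and 90 lower. Libraries did not overlap for 153 members (54.1%), 42 higher and 111 lower, against 26.3% of tested transcripts, 14.0% higher and 12.3% lower. Lower calls made up 72.4% of the calls, and 64.8% when members were chosen on all 12 libraries. On the injected libraries 58 were called higher and 87 lower. At 1.5-fold or more the choice on all 12 libraries gave 8 higher and 20 lower, and that on the injected libraries 12 and 18.

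At 1.5-fold or more 22 members were called lower with EVs and 5 higher, where 2.49% and 2.26% of tested transcripts were. Of the 22, 16 lay among the 118 members of at least 1000 CPM, a split made on the uninjected libraries. At 2-fold or more 10 were lower and 2 higher, where 0.695% and 0.728% of tested transcripts were. Without EV-injected replicate 4 only 1 was higher. The median log2 fold change over members was −0.08, against 0.0026 over all tested transcripts. It was −0.03 with library totals as the only scaling, which moved the median of all tested transcripts to 0.06.

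The second largest loss with EVs was in dd_Smed_v6_8_0_1, 512 bases long. It had 2443, 2381, 2594 and 2656 CPM uninjected, 1237, 631, 2138 and 885 CPM with buffer, and 689, 1201, 770 and 649 CPM with EVs. Buffer-injected replicate 3 was again the injected library nearest to the uninjected ones. The log2 fold changes were −1.08 ± 0.26 with buffer and −1.66 ± 0.27 with EVs (SE, edgeR adjusted p = 0.00607 and 0.000149).

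Losses and gains were both spread over many members, and a few members held a large part of the losses. With buffer 188 members had a lower mean, a sum of −49567 CPM, and 95 had a higher mean, a sum of 18795 CPM, for a net change of −30772 CPM. The 17 members called at least 1.5-fold lower gave −23937 CPM, 48.3% of the summed losses. With EVs 166 members were lower, a sum of −55604 CPM, and 117 were higher, a sum of 21580 CPM, for a net change of −34024 CPM. The 22 called at least 1.5-fold lower gave −30984 CPM, 55.7% of the summed losses. The 5 largest losses made up 32.3% of the summed losses with buffer and 32.8% with EVs.

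The 17 members with large losses after buffer injection had wide spreads in the injected groups. Their summed level was 49890, 45965, 48730 and 51628 CPM uninjected, 26171, 19500, 32896 and 21899 CPM with buffer, and 21468, 28074, 19466 and 18847 CPM with EVs. Every injected library was far below the uninjected ones, with buffer-injected replicate 3 and EV-injected replicate 2 the highest of their groups. Their median coefficient of variation was 8.64% without injection, 22.9% with buffer and 17.7% with EVs. Over all 283 members it was 3.87%, 4.24% and 4.23%.

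The same libraries were high for most of these 17. EV-injected replicate 2 was the highest EV-injected library for 14 of them (82.4%), against 33.2% of all members. Buffer-injected replicate 3 was the highest of its group for 11 (64.7%), against 29.7% of all members. These libraries also had the largest totals of their groups, 26359352 and 30903133 counts. In uninjected tails, the library with the largest total, replicate 2, was highest for 1 of the 17 (5.88%), against 12.0% of all members. Some of the 17 move together, so they are not separate observations. The part of depth in this pattern was not tested.

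Some of the members with large losses kept a near constant ratio to each other while their levels moved. The level of dd_Smed_v6_79_0_1 spanned a 3.29-fold range over the 12 libraries. The level of dd_Smed_v6_33_0_1 divided by it ran only from 0.296 to 0.319, a 1.08-fold range, and that of dd_Smed_v6_10_1_1 from 1.38 to 1.62, a 1.17-fold range. For dd_Smed_v6_10_1_1 the ratio was 1.38 to 1.49 uninjected, 1.39 to 1.6 with buffer and 1.51 to 1.62 with EVs, without overlap between EV-injected and uninjected libraries. Other ratios to dd_Smed_v6_79_0_1 varied more, by 1.67-fold for dd_Smed_v6_42_0_1, 1.84-fold for dd_Smed_v6_8_0_1 and 1.99-fold for dd_Smed_v6_19_0_1. Whether any of these transcripts share sequence, and so reads, was not tested.

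Large losses were most frequent among short members. Of the 83 members shorter than 1000 bases, 11 were called at least 1.5-fold lower with buffer and 14 with EVs, or 13.3% and 16.9%. Of the members from 1000 to under 2000 bases 4 and 6 were, or 3.96% and 5.94%. Above that there was 1 in each comparison among the 63 members from 2000 to under 4000 bases and 1 among the 36 longer ones. Among the 281 transcripts of 100 to 500 CPM under 1000 bases, 9 (3.2%) were that much lower with buffer and 8 (2.85%) with EVs. From 1000 to under 2000 bases the shares at 100 to 500 CPM were 3.42% and 6.46%, close to those of the members. Over all tested transcripts the shares were 2.47% and 2.65% under 1000 bases, and 2.21% and 3.09% from 1000 to under 2000. No test of these differences was made. The median log2 fold change of the members with buffer was −0.09 under 1000 bases, −0.10 from 1000 to under 2000, −0.11 from 2000 to under 4000 and −0.06 above.

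**Figure D5:**
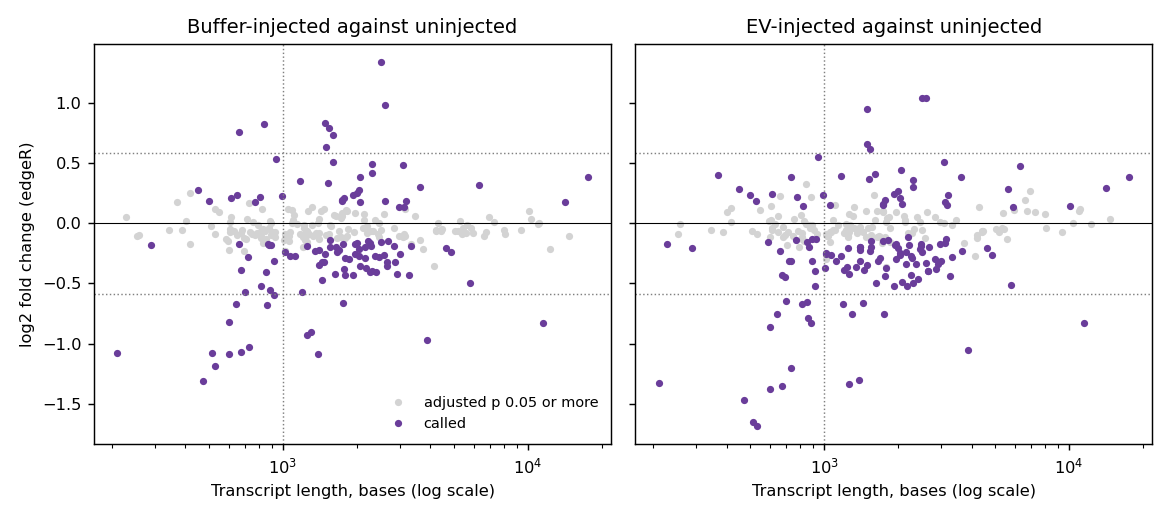
Log2 fold change (edgeR) of the 283 members against transcript length (bases, log scale), for buffer (left) and EVs (right). The vertical dotted line marks 1000 bases and the horizontal ones 1.5-fold. Most points under the lower dotted line are left of 1000 bases, and gains beyond 1.5-fold lie mostly to the right of it.

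EV-injected tails were also set against buffer-injected ones, which had the same injection without EVs, and these 8 libraries took no part in choosing the members. No member was called with edgeR, where 0.0993% of tested transcripts were, 0.0426% higher and 0.0567% lower. The unadjusted edgeR p was under 0.05 for 48 members (17.0%), against 10.1% of tested transcripts and 16.9% of those of 100 to 500 CPM. DESeq2 called 10 members (3.53%), 3 higher and 7 lower, and 1.17% of the 11379 transcripts to which it gave an adjusted p, 0.387% higher and 0.782% lower. Limma-voom called 1 member (0.353%) and 0.104% of tested transcripts. The libraries of the groups did not overlap for 20 members, 7 higher and 13 lower (7.07%), against 4.9% of tested transcripts, 2.24% higher and 2.66% lower. Of the transcripts of 100 to 500 CPM 8.23% did not overlap. The 95% interval of the fold change between EVs and buffer stayed inside 1.25-fold both up and down for 226 members, and inside 1.5-fold for 273.

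The member with the lowest p between EVs and buffer was dd_Smed_v6_2197_0_1, 5646 bases long, named after its values were seen. It had 646, 713, 721 and 743 CPM uninjected, 723, 735, 692 and 715 CPM with buffer, and 824, 835, 956 and 953 CPM with EVs. The EV-injected libraries all lay above the other 8, which overlapped. With EVs it was 0.30 ± 0.06 above buffer on the log2 scale (SE, edgeR adjusted p = 0.0585). It passed with limma-voom (adjusted p = 0.0375), a robust fit (0.0106), no filter (0.037), library totals (0.0382), a replicate block (0.032) and run 2 alone (0.0346). It did not pass with run 1 alone, with only the 8 libraries compared or with the other filter and scalings in edgeR. With a library left out it passed only without uninjected replicate 1 or 4 or EV-injected replicate 2.

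The members with large losses were not called between the injected groups. Of the 17 lowered with buffer, 14 had lower fitted levels with EVs than with buffer, with a median log2 fold change of −0.16. So had 168 of all 283 members and 10802 of the 21149 transcripts tested. Some of the 17 move together, so they are not separate observations. The edgeR adjusted p of the 17 ran from 0.459 to 0.997, and EV-injected and buffer-injected libraries overlapped for all 17. The largest of the fold changes was that of dd_Smed_v6_8_0_1, −0.58 ± 0.26 (SE, edgeR adjusted p = 0.47). dd_Smed_v6_320_0_1, the largest gain, had a log2 fold change of −0.29 ± 0.07 with EVs over buffer (SE, edgeR adjusted p = 0.146).

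The authors' deposited table lists all 283 members. It called 130 of them in the authors' deposited comparison with buffer, 38 higher and 92 lower, and 122 of these were called here. The authors' deposited table called 147 with EVs, 39 higher and 108 lower, and 0 between EVs and buffer.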

How the data were processed

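Poly-A RNA of 12 tail pools was sequenced in 2 runs of paired 150-base reads. For each transcript the authors deposited raw counts, not normalized, beside its length. FastQC 0.11.5, BBDuk, Bowtie2 2.3.1, featureCounts of Subread 1.6.3 and edgeR 4.0.16 made these files, per the submitters' processing notes. How strand and reads that fit several transcripts were handled is not given in the sources used here, so counts of similar transcripts are uncertain. Per the file headers, the authors' deposited comparison table has columns of log2 fold change and log2 CPM, the F score of the test, its p-value and a false discovery rate.

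Both runs were summed per library, which equalled the deposited both-run counts in all 344904 cells. CPM and shares use library totals, and TPM divides by the full transcript length. Tests used R 4.3.3 and edgeR 4.0.16 (filterByExpr, TMM scaling with factors of 0.958 to 1.03, quasi-likelihood F test, 1 model over 12 libraries, no covariate) on 21149 transcripts, with Benjamini-Hochberg adjustment and a threshold of 0.05. Standard errors come from the F statistic. Fold changes are TMM scaled while CPM values are not. Overlap between groups was judged on TMM-scaled CPM. The test was also run on simulated counts with changes put into the EV-injected group, read against the uninjected group only. That run did not cover the choice of members or the comparison of EVs with buffer. The lowest count of a member in any library was 6276, a counting error of 1.26%, and CPM of 1 library differed between runs by a median of 2.69% over members. Replicate numbers were not taken as pairing of the libraries.

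Alternatives were other scalings, DESeq2 1.42.0, limma-voom (limma 3.58.1), other filters, a robust fit, only 8 libraries, a replicate block, single runs, other choices of members, and each library left out. Named members are the 6 highest by CPM, the 3 highest by TPM and, per comparison, the 2 largest called rises and falls without overlap between groups, with the 2 transcripts nearest to 500 CPM on each side and any member called between EVs and buffer (up to 6). The members and rules were chosen with earlier results of these data known. Figures were drawn with matplotlib 3.10.9. No sequence or annotation was used here.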

Additional observations from a re-analysis of the deposited data

Results flagged for a closer look

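The share of counts held by the members and the levels of the 12 named members were checked in each group for a library far from the other 3, 39 checks in all. None was marked, where chance would mark about 1.95.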

How the results depend on the processing

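Calls against uninjected tails, 122 with buffer and 145 with EVs, moved by over 1.5 times only with a minimum fold of 1.5 (25 and 27) and where the threshold changed the number of members, at 250 CPM (278 and 334) and 1000 CPM (53 and 67). With a library left out they ran from 103 to 127 and from 127 to 147. The calls between EVs and buffer, 0 with edgeR, were 10 with DESeq2, and 1 with library totals, limma-voom, a robust fit, no filter, a replicate block or run 2 alone, and 0 to 2 with a library left out. The cause was not tested. Libraries with the same replicate number had deviations that correlated at −0.0204 to 0.139 over 12 pairs, 1 of them over 0.1. The numbers were therefore not taken as pairing, although 6 of 12 libraries correlated best with a library of their own number. Whether chance gives as many was not tested. The replicate block gave 123 calls with buffer and 147 with EVs.

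The median log2 fold changes, −0.09 with buffer and −0.08 with EVs, were −0.051 and −0.031 with library totals, −0.070 and −0.066 with members chosen on all 12 libraries, −0.066 and −0.054 on the 8 injected libraries, −0.065 and −0.054 at 250 CPM and −0.12 and −0.14 at 1000 CPM. With EVs it was −0.072 at 500 TPM. Between EVs and buffer it was −0.01, and 0.0038 with library totals. With a library left out the ranges were −0.10 to −0.075, −0.10 to −0.065 and −0.02 to −0.0030. The changes in share, −3.08 and −3.40 points, were −2.56 and −2.91, −2.21 and −2.58, and −2.59 and −2.92 under the choices on 12 libraries, on 8 libraries and at 250 CPM. With a library left out they ran from −3.19 to −2.86 and from −3.54 to −3.19, and between EVs and buffer from −0.464 to −0.217.

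Counts of 1.5-fold losses without a library were checked after seeing the data and ran from 17 to 20 with buffer and 20 to 24 with EVs. The 8 gains with buffer were 5 with DESeq2. In 696 checks of named members 681 kept their side of the threshold, 10 lost a call, 4 gained one, 0 called values reversed, and 1 uncalled value changed sign.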

Other observations

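Transcripts near 500 CPM lay on different sides of it in different groups. The rule puts all members above it in uninjected tails, so members can only cross downwards and others only upwards. A crossing alone is therefore no sign of a change, though some crossings went with large ones. dd_Smed_v6_790_0_1, picked after its values were seen, went from 833 to 434 CPM with buffer (log2 fold change −0.97 ± 0.14, SE, edgeR adjusted p = 4.1e-05). The mean of 17 members was below 500 CPM with buffer and that of 19 with EVs, and 34 transcripts that are not members reached it in at least 1 injected group. Their uninjected means ran from 48.1 to just below 500 CPM (499.6), with a median of 452 CPM. Nearest to the threshold inside the set were dd_Smed_v6_1258_0_1 at 501.5 ± 22.5 CPM and dd_Smed_v6_136_0_1 at 501.3 ± 22.4 CPM, and outside it dd_Smed_v6_932_0_1 at 499.6 ± 20.3 CPM and dd_Smed_v6_587_0_1 at 499.3 ± 7.04 CPM (SD, n = 4). All 4 lay within their own spread of the threshold, while 267 members were at 500 CPM or more in every uninjected library.

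A total of 10 members share the leading number of their identifier with another transcript in the table, and their counts may depend on how shared reads were assigned. dd_Smed_v6_10_1_1 changed by −1.03 with buffer and −1.20 with EVs on the log2 scale, and dd_Smed_v6_10_0_1, also a member, by −0.13 and −0.18, neither of them called (edgeR adjusted p = 0.533 and 0.337). dd_Smed_v6_122_1_1 changed by −0.93 and −1.34, and dd_Smed_v6_122_0_1 by −0.57 and −0.67, all called (edgeR adjusted p at most 0.00175). These pairs were chosen after their values were seen.

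The member with the widest spread in uninjected tails was dd_Smed_v6_85_0_1, 840 bases long, also chosen after its values were seen. It had 392, 726, 852 and 640 CPM uninjected, 1024, 1818, 1161 and 735 CPM with buffer, and 573, 783, 1302 and 732 CPM with EVs. Its groups overlapped throughout, and its coefficient of variation was 29.8%, 38.7% and 37.3%. Its call with buffer, at a log2 fold change of 0.83 ± 0.26 (SE, edgeR adjusted p = 0.0299), thus came with 1 buffer-injected library inside the uninjected range.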
